A study of Sorghum bicolor with 12 samples.

Results

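LHY (Sobic.007G047400), TOC1 (Sobic.004G216700) and GI (Sobic.003G040900), genes of the plant circadian clock, were followed by their IDs through the stem transcriptome of the sweet sorghum (Sorghum bicolor) hybrid CSH22SS. They are 3 of the 34129 gene IDs that the deposited table names, and in both of its parts a single locus held each of them and no other gene. All plants were field-grown, and RNA came from the middle stem internode. The 12 libraries form 6 groups of 2: booting (panicle still inside the flag-leaf sheath), milky (the stage of milky grain), physiological maturity, and 3 further booting groups with the codes Ds1, Ds2 and Ds3, placed by the table's header under water-limiting conditions. The labels give no meaning for Ds, no length or severity of a treatment, and no hour of harvest. The table has a developmental part, with the 3 stages, and a water-limiting part, with the Ds groups and the booting libraries once more.

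The circadian clock is a set of genes that repress and activate each other in turn over a day. In Arabidopsis, LHY encodes a MYB transcription factor whose RNA peaks around dawn, and TOC1 encodes a pseudo-response regulator whose RNA peaks around dusk. The LHY protein represses TOC1 by day and the TOC1 protein represses LHY by night. GI encodes a large plant-specific protein whose RNA peaks late in the day and which acts with an F-box protein on the stability of TOC1 and on flowering in long days. The RNA level of all 3 genes there depends on the hour at which a plant is sampled. No hour of harvest is given here, and its part in the differences between groups was not tested. It cannot be told apart from stage or water supply.

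Levels are the authors' FPKM (fragments scaled by transcript length and by library size), which can be compared between genes because they are set per length. The 2 libraries of a group had been combined into 1 value, so no value has a replicate error, no test was possible, and all differences are described by size alone. The parts were scaled separately, so ratios were taken within a part. Read depth is unknown. FPKM totals ranged from 477140 to 597180 in booting, milky and maturity and from 647610 to 885370 in the Ds groups. The 10 most abundant loci held 5.50% to 7.66% of the total in the columns outside Ds and 20.6% to 29.8% in the Ds groups. Of the tissue markers, 3 genes recalled as secondary-wall cellulose synthases (Sobic.001G224300, Sobic.002G205500, Sobic.003G296400) read 16.9 to 40.4 FPKM in booting and 0.138 to 3.73 in the other 5 groups. The gene recalled as the leaf mesophyll enzyme C4 PEPC (Sobic.010G160700) read 0.0612 to 0.180 FPKM throughout. The wall genes were thus high in booting alone, and their part in the clock genes' differences was not tested.

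Because booting was quantified in each part, its 2 columns show how far the authors' processing alone moved a value. LHY read 324 FPKM in the developmental part and 285 in the water-limiting part, a ratio of 0.882. TOC1 read 18.3 and 15.9 FPKM, a ratio of 0.867. GI read 436 and 352 FPKM, a ratio of 0.806. The median ratio over 7747 genes with at least 10 FPKM in both booting columns was 0.863, with an SD of 0.21 on the log2 scale. All 3 clock genes lay within that SD of the median. This SD reflects the processing of the same libraries and not the variation between plants. It was taken between the parts, so beside gaps within a part it is a scale of size and not an error.

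LHY, the dawn gene, was the member with the widest span of levels. LHY had 92.0 FPKM at the milky stage, below both 324 at booting and 339 at maturity. Milky stood apart, 3.52-fold below booting, while booting and maturity were 1.05-fold apart. In whole internode tissue, fewer cells that express a gene and less RNA per cell cannot be told apart. In the water-limiting part booting had 285 FPKM of LHY, against 40.1 for Ds1, 20.7 for Ds2 and 45.8 for Ds3. All Ds groups lay far below booting, in the descending order booting, Ds3, Ds1, Ds2. Ds3 and Ds1 were 1.14-fold apart on FPKM, a gap smaller than the SD between the booting columns, while Ds1 was 1.94-fold above Ds2. Among loci naming 1 gene, LHY ranked 154 of 31423 from the top in booting and again 154 in maturity, but 1052 in milky. In the water-limiting part its rank was 161 of 33391 at booting and 2750, 4879 and 2149 in the Ds groups by number.

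TOC1, the evening gene, ran the other way. TOC1 had 63.4 FPKM at the milky stage, against 18.3 at booting and 21.0 at maturity. Here too milky stood apart, 3.02-fold above maturity, and maturity was 1.15-fold above booting. In the water-limiting part booting had 15.9 FPKM of TOC1, against 57.7 for Ds1, 92.8 for Ds2 and 67.0 for Ds3. The order of its levels, Ds2, Ds3, Ds1 and booting, had the same groups at its ends as that of LHY, turned round. Ds3 and Ds1 were 1.16-fold apart, about the SD between the booting columns, and Ds2 was 1.38-fold above Ds3. Its rank from the top was 6327 of 33391 in booting and 885 in Ds2.

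GI, the large evening-phased protein gene, was the most abundant of the members in every column and the steadiest. GI had 436 FPKM at booting, 462 at the milky stage and 438 at maturity. These values spanned 1.06-fold on FPKM + 1, and 98.1% of 9644 loci with at least 10 FPKM in some group of that part spanned as much or more. In the water-limiting part booting had 352 FPKM of GI, against 178 for Ds1, 185 for Ds2 and 253 for Ds3. The Ds groups were all below booting, Ds1 and Ds2 were 1.04-fold apart, and Ds3 lay 1.36-fold above Ds2. The span of 1.97-fold over this part was close to the median of 2.12-fold over 10951 loci. The corresponding spans were 13.2-fold for LHY and 5.56-fold for TOC1, and 6.02% and 14.9% of loci spanned as much or more.

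**Figure D1:**
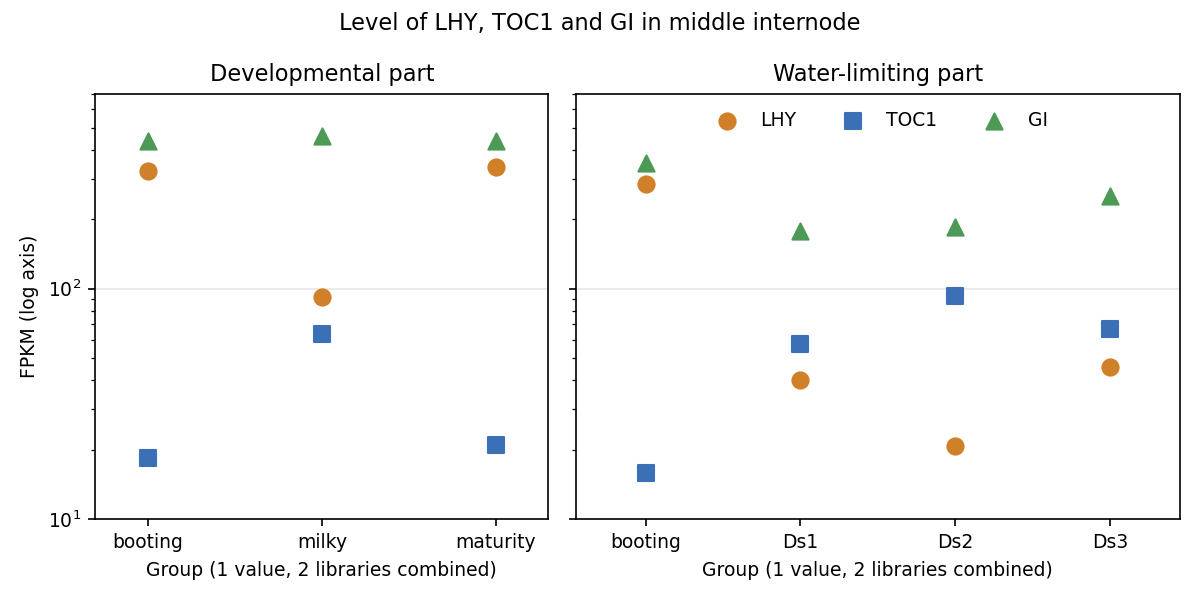
FPKM (log axis) of LHY, TOC1 and GI in each group of the developmental and the water-limiting part; each point is the authors' single value for 2 combined libraries, so there are no error bars. LHY is at 324 and 339 FPKM in booting and maturity and at 92.0 in milky, TOC1 lies above LHY in the 3 Ds groups only, and GI is the highest in every column.

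The ratio of LHY to TOC1 within a column does not change when the whole column is multiplied by a common factor. Quantile normalization, which is not such a factor, can change it. Over the stages it was 17.7 at booting, 1.45 at milky and 16.1 at maturity. The water-limiting part gave 18.0 for booting, 0.694 for Ds1, 0.223 for Ds2 and 0.684 for Ds3. LHY therefore exceeded TOC1 in booting, milky and maturity, and TOC1 exceeded LHY in Ds1, Ds2 and Ds3. The booting ratios of the 2 parts, made from the same libraries, differed little from each other and from the maturity ratio. Against booting the ratio was 12.2-fold lower in milky and 25.9-fold, 80.7-fold and 26.3-fold lower in Ds1 to Ds3. Between Ds3 and Ds1 it differed by 1.02-fold, although both genes read slightly more in Ds3. GI exceeded LHY by 1.35-fold in booting of the developmental part, by 5.02-fold in milky and by 8.96-fold in Ds2. GI exceeded TOC1 by 23.8-fold, 7.29-fold and 2.0-fold in the same 3 columns.

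**Figure D2:**
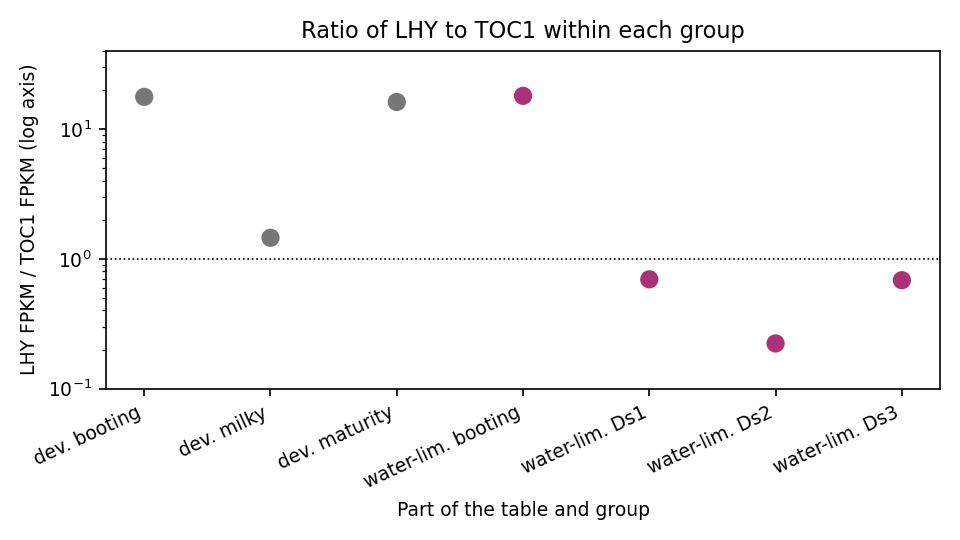
Ratio of LHY FPKM to TOC1 FPKM (log axis) in each column, grey for the developmental and purple for the water-limiting part, with a dotted line at equal levels. Booting (17.7 and 18.0) and maturity (16.1) lie together, milky is at 1.45, and Ds1, Ds2 and Ds3 are below 1.

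How the members moved was then set beside all loci that name 1 gene and reach 10 FPKM in the higher group of a comparison. Changes are log2 ratios of FPKM + 1, which slightly understate the change of low genes. A locus was counted as past 4-fold or 2-fold when that ratio was at least 4 or 2 in either direction, with no replicate check.

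The first comparisons were between stages of the internode. Between booting and milky the log2 change was -1.80 for LHY, 1.74 for TOC1 and 0.08 for GI, the last of which turned to -0.19 under quantile normalization. Of the 3 members 2 were past 2-fold, against 9.40% of 9398 loci, and 0 were past 4-fold, against 1.95%. Changes at least as far down as that of LHY were seen at 1.50% of loci, and at least as far up as that of TOC1 at 1.06%. The median over all these loci was 0.04.

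Between booting and maturity the members hardly differed. The log2 change was 0.07 for LHY, 0.19 for TOC1 and 0.01 for GI, where the median over 9148 loci was 0.07. None of these exceeds the SD of 0.21 between the booting columns, and those of LHY and GI changed sign under quantile normalization. Of the members 0 were past 2-fold, against 3.51% of loci, and 0 past 4-fold, against 0.951%. From milky to maturity LHY and TOC1 differed in the directions opposite to those from booting to milky. The log2 change from milky to maturity was 1.87 for LHY, -1.55 for TOC1 and -0.08 for GI, which read 0.13 under quantile normalization. Here 2 of the 3 members were past 2-fold, against 12.9% of 9345 loci, and 0 past 4-fold, against 2.13%. Only 0.899% of loci were as far up as LHY, and 2.76% as far down as TOC1. The comparisons of milky with booting and of maturity with milky share the milky libraries, so they are not independent.

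The Ds groups, placed by the header under water-limiting conditions, were next set against booting. The 3 comparisons with booting share its libraries, so the members' values in them are given side by side. LHY had log2 changes of -2.80 (Ds1), -3.72 (Ds2) and -2.61 (Ds3). TOC1 had changes of 1.80, 2.48 and 2.01, and GI of -0.98, -0.92 and -0.47, in the same order. LHY was past 4-fold in all of them, TOC1 in Ds2 and, at 4.03-fold, just so in Ds3, and GI in none. In Ds1 that is 1 of 3 members past 4-fold, against 13.9% of 10320 loci, and 2 past 2-fold, against 38.4%. In Ds2 it is 2 of 3 past 4-fold, against 15.3% of 10336 loci, and the same number past 2-fold, against 39.6%. In Ds3 it is again 2 of 3 past 4-fold, against 13.6% of 10276 loci, and 2 past 2-fold, against 37.3%. With a pseudocount of 5 TOC1 fell short of 4-fold in Ds3, at a log2 change of 1.79. That leaves 1 of 3 members, where 773 of the 10276 loci were past 4-fold with that pseudocount. GI was just short of 2-fold in Ds1 and Ds2. It passed 2-fold with the other part's booting column (-1.08 and -1.02) and under quantile normalization (-1.60 and -1.24). The share of all loci past 2-fold was not computed for these settings, so no count of members is given for them.

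Many loci were far from booting in the Ds groups, so the members' changes were set beside the share of loci that lay as far. LHY was matched or exceeded downwards by 2.16% of loci in Ds1, 1.16% in Ds2 and 3.67% in Ds3. TOC1 was matched or exceeded upwards by 10.4%, 6.35% and 7.25%. GI was matched or exceeded downwards by 19.4%, 24.0% and 35.7%. The upward change of TOC1 was thus larger in Ds2 than in milky (1.74), but less rare among the loci of its comparison. For LHY the share was 1.50% in milky, so its change was rarer in Ds2 than in milky, and less rare in Ds1 and Ds3.

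Among the Ds groups, Ds2 was the one in which LHY was lowest and TOC1 highest. From Ds1 to Ds2 the log2 change was -0.92 for LHY, 0.68 for TOC1 and 0.06 for GI. In that comparison 0 of 3 members were past 2-fold, against 12.0% of 9145 loci, and 0 past 4-fold, against 3.25%. From Ds2 to Ds3 it was 1.11 for LHY, -0.46 for TOC1 and 0.45 for GI. LHY, at 20.7 and 45.8 FPKM, was the 1 member of 3 past 2-fold, against 4.26% of 8938 loci, and 1.26% of loci were as far up. With a pseudocount of 5 its change was 0.99, short of 2-fold. The share of all loci past 2-fold was not computed for that setting. Without that change of setting, no member was past 4-fold (0 of 3), against 0.515% of loci. From Ds1 to Ds3 LHY changed by 0.19, TOC1 by 0.21 and GI by 0.50, with 0 of 3 members past 2-fold, against 19.1% of 9441 loci, and 0 past 4-fold, against 5.18%. These comparisons share libraries pairwise.

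**Figure D3:**
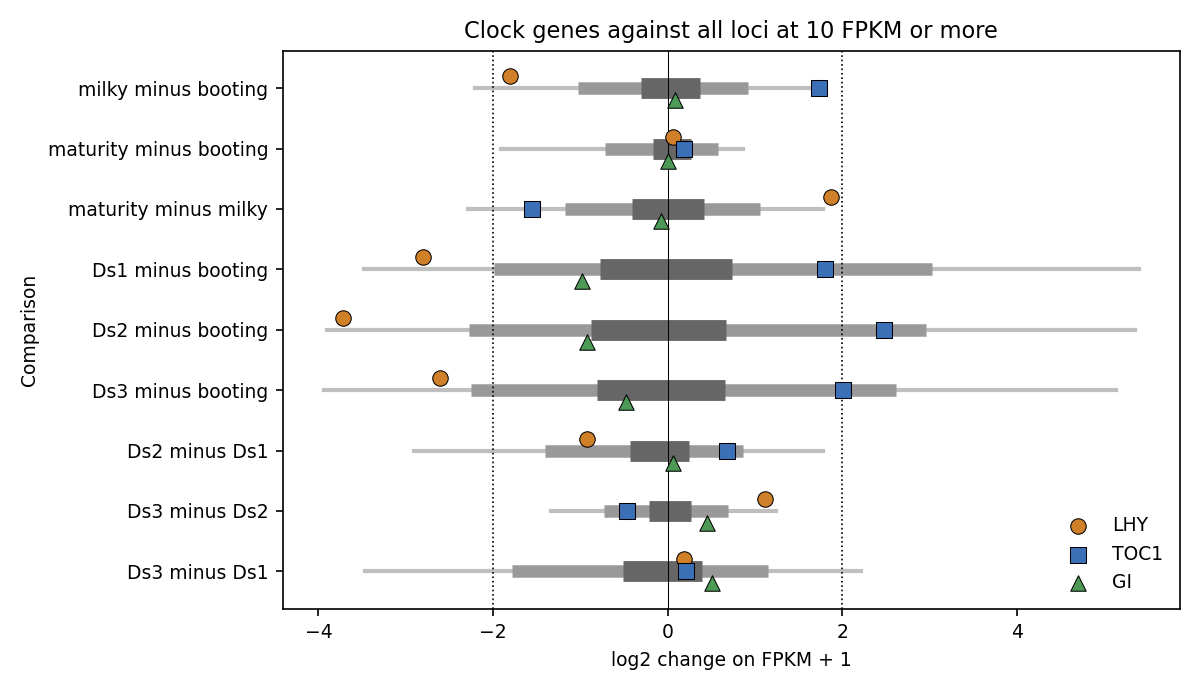
log2 change on FPKM + 1 of LHY, TOC1 and GI in each comparison, over grey bars that span the 1st to 99th (thin), 5th to 95th (medium) and 25th to 75th (thick) percentile of all loci naming 1 gene with at least 10 FPKM in the higher group; dotted lines mark a ratio of 4. LHY and TOC1 lie on opposite sides in milky against booting (-1.80 and 1.74) and in each Ds group, and all 3 members lie near 0 in maturity against booting.

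The genes whose profile was most like that of each member were found among 6955 genes that had 1 own locus in each part and averaged 10 FPKM or more there. Likeness was the root mean square (RMS) difference over the 5 log2 changes from booting (milky, maturity, Ds1, Ds2, Ds3). These changes share the booting libraries and are what the genes were chosen by. Likeness is therefore a description, and being high or low in the same groups as a member follows from the choice. The table does not pair IDs with names, and no role is given for the genes found. LHY had few near neighbours: 3 genes lay within an RMS of 0.5, and the median over all genes was 2.47. The nearest, Sobic.004G339800, lay at 0.47 and had 62.4, 9.57 and 70.9 FPKM at booting, milky and maturity. In the water-limiting part its FPKM was 40.9 for booting and 5.41, 3.93 and 4.55 for Ds1 to Ds3. As chosen, it was low in the same groups as LHY, and its milky value was further below booting. The next, Sobic.001G095500, lay at 0.48, with 96.1, 42.4 and 136 FPKM over the stages and 79.2, 16.1, 7.41 and 11.8 FPKM in booting, Ds1, Ds2 and Ds3, so that Ds2 was its lowest group, as for LHY.

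TOC1 had 6 genes within an RMS of 0.5, and the median over all genes was 1.93. Sobic.001G247600 was much the nearest, at 0.25, and its levels were close to those of TOC1 as well. Over the stages it had 20.3, 75.7 and 16.4 FPKM, and in the water-limiting part 17.5 FPKM for booting and 66.6, 104 and 86.8 for Ds1 to Ds3. The order of its Ds groups was that of TOC1. The next, Sobic.003G105700, at 0.46, was more abundant, with 68.7, 130 and 92.1 FPKM over the stages and 52.9, 191, 338 and 317 FPKM in booting, Ds1, Ds2 and Ds3. GI, by contrast, had 1737 genes within an RMS of 0.5, the nearest 5 of them within 0.11, and no gene is named for it. Its changes from booting were the smallest of the members, and a fixed RMS limit admits more genes for small changes. These counts thus depend on the size of a profile's changes as well as on their shape. Between members the RMS was 4.32 for LHY and TOC1, 1.96 for LHY and GI, and 2.38 for TOC1 and GI. Seen from LHY, TOC1 ranked 6854 of 6954 other genes in likeness and GI 1369.

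**Figure D4:**
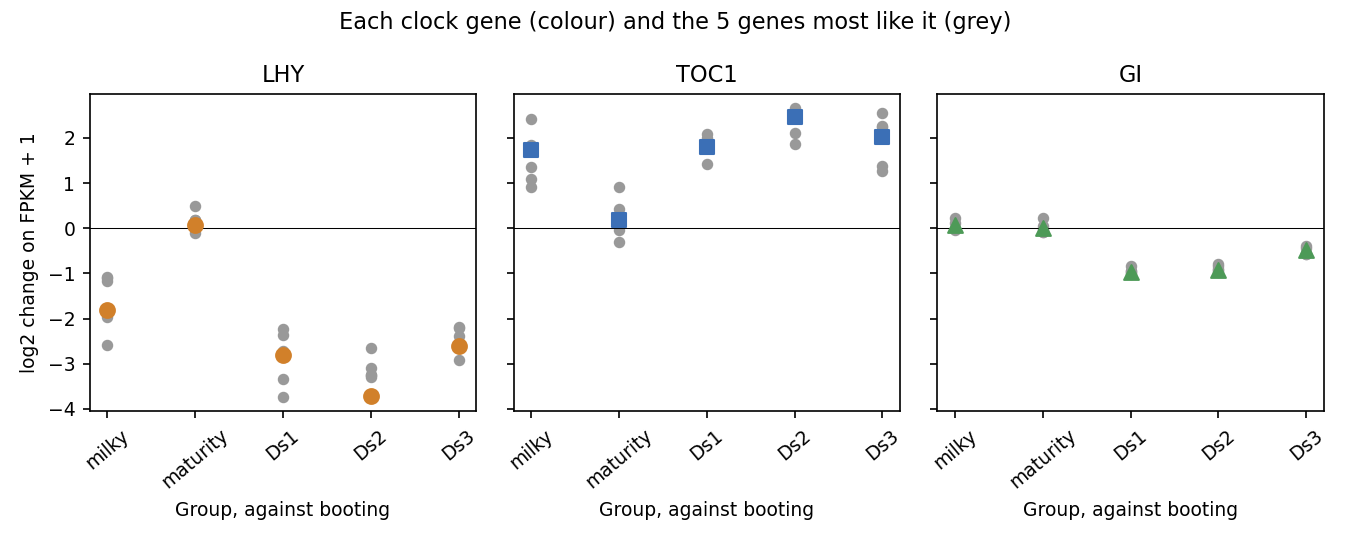
log2 change from booting on FPKM + 1 in milky, maturity, Ds1, Ds2 and Ds3 for LHY, TOC1 and GI (coloured) and for the 5 genes with the smallest RMS difference from each (grey). The grey points spread around LHY and TOC1 (RMS 0.47 to 0.62 and 0.25 to 0.48) and lie almost on those of GI (0.07 to 0.11).

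The clock acts on flowering through a photoperiod pathway, and 9 genes of it were looked up by IDs recalled from the sorghum literature. PRR37 (Sobic.006G057866), GHD7 (Sobic.006G004400) and CO (Sobic.010G115800) are regulators that respond to day length, EHD1 (Sobic.001G227900) is an activator of florigen genes, and CN8 (Sobic.009G199900), CN12 (Sobic.003G295300) and CN15 (Sobic.010G045100) are florigen-like genes. Sobic.001G087100 (PHYC) and Sobic.001G394400 (PHYB) encode phytochromes, which are light receptors. Each of the 9 had its own locus in either part, but only PHYB, PHYC and CN15 reached 10 FPKM in any group. EHD1 was listed at 0 in every column, and PRR37, GHD7, CO, CN8 and CN12 stayed at or below 1.37 FPKM. Between the stages only PHYB and PHYC had 10 FPKM in the higher group of a comparison, and from booting to maturity PHYC alone did. Past 2-fold were 0 of 2 from booting to milky, 0 of 1 from booting to maturity and 0 of 2 from milky to maturity. Of all loci at that minimum, 9.40% were past 2-fold from booting to milky, 3.51% from booting to maturity and 12.9% from milky to maturity. With so few list genes, the count says little about the list. CN15 was listed at 0 in booting of both parts and in maturity, and at 0.118 FPKM in milky. Its level was 53.1 FPKM in Ds1, 11.8 in Ds2 and 6.35 in Ds3, so its highest value was in Ds1. Among the Ds groups, Ds1 had the lowest TOC1 (57.7 FPKM) and GI (178 FPKM), while LHY was lowest in Ds2. GI in Ds1 was only 1.04-fold below Ds2, and TOC1 in Ds1 only 1.16-fold below Ds3. A relation of CN15 to the clock genes was not tested. PHYC had 20.1 FPKM at booting and 54.4, 24.0 and 30.0 in Ds1 to Ds3, and PHYB was likewise highest in Ds1, at 21.3 FPKM. Among list genes with at least 10 FPKM in the higher group, 3 of 3 were past 2-fold above booting in Ds1, where 19.6% of all such loci were. In Ds2 it was 1 of 3 (17.9%) and in Ds3 0 of 2 (17.4%). Of the list genes 0 were past 2-fold below booting, where 1939 of 10320 loci were in Ds1, 2239 of 10336 in Ds2 and 2044 of 10276 in Ds3. CN15 is not in the Ds3 count, since its 6.35 FPKM there is under that minimum. PHYB and CN15 reached the minimum only through their Ds values, so these counts support no direction for the list.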

How the data were processed

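The authors deposited 1 table of FPKM values with 1 column per group, so the 2 libraries of each group had been combined before deposit. That these are FPKM is read from the table's own name. Per the labels' protocols, RNA was extracted with a modified Trizol method and libraries came from a stranded total RNA kit. The submitters' processing notes name Cuffdiff, Bowtie2 2.2.9, cutadapt 1.8.1 and HISAT2 2.0.5 without their roles or order. Sources used here name no genome build, and whether fragments were counted by strand is not stated, so antisense reads cannot be told apart.

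The table's developmental part lists 34458 loci, 31423 of them naming 1 gene, and the water-limiting part lists 34718 and 33391. Changes were log2 ratios of FPKM + 1 within a part, computed with Python 3.11.15, numpy 2.4.6 and pandas 2.3.3, and the code was tested on simulated data. Loci naming no gene or several genes were left out of the background. The 3 members were given, the genes named for likeness are the nearest 2 of the 5 nearest by RMS, and of the list of 9 photoperiod genes all were counted. Members and lists were chosen with earlier results of these data known. In the RefSeq table (assembly NCBIv3) 0 of 34129 IDs were found, so names other than those of the members are recalled, clock genes could not be listed by product name, and sequences and positions are not given. Alternatives were pseudocounts of 0.1 and 5, median-of-ratios scaling, quantile normalization, the other part's booting column, no minimum level, and a ratio of 2.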

Additional observations from a re-analysis of the deposited data

How the results depend on the processing

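No paired analysis was possible because the table holds 1 value per group; for the same reason no replicate could be left out, and depth is unknown. Of 123 recomputed log2 changes of the members, 110 moved by no more than the SD of 0.21 between the booting columns, 13 moved further, and 0 changes past 4-fold turned sign. With a pseudocount of 5 the change was 1.59 for TOC1 in Ds1, -3.50 for LHY and 2.23 for TOC1 in Ds2, and 1.79 for TOC1 in Ds3, the 1 change that then fell short of 4-fold. Under quantile normalization LHY read -3.18, -3.96 and -2.88 in Ds1, Ds2 and Ds3 against booting, and GI -1.60, -1.24 and -0.75. GI also read -0.19 from booting to milky, 0.35 from Ds1 to Ds2 and 0.85 from Ds1 to Ds3. This normalization moved the median of all loci by -0.11 in Ds1 against booting and by 0.11 in Ds2 against Ds1. Relative to the median, GI was at -1.45 instead of -0.94 in Ds1. Signs that turned under it, all of changes within 0.09 of 0, were those of GI in milky, of LHY (-0.005) and GI (-0.06) in maturity against booting, and of GI (0.13) in maturity against milky. A pseudocount of 0.1, median-of-ratios scaling and the other part's booting column moved no member's change beyond that SD, but the 2-fold side changed for GI in Ds1 and Ds2 with that booting column (-1.08 and -1.02) and under quantile normalization, and for LHY from Ds2 to Ds3 with a pseudocount of 5 (0.99).

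Counts of loci past 4-fold, 183, 87 and 199 for milky against booting, maturity against booting and maturity against milky, were 80, 39 and 78 with a pseudocount of 5, and 883, 321 and 1206 were past 2-fold. For Ds1, Ds2 and Ds3 against booting, 1430, 1578 and 1393 became 806, 839 and 773, and 3959, 4093 and 3831 were past 2-fold. For Ds2 against Ds1, Ds3 against Ds2 and Ds3 against Ds1, 297, 46 and 489 became 137, 14 and 245, and 1093, 381 and 1803 were past 2-fold. The genes most like a member depended on the measure: ranked by Pearson r, the nearest 5 shared 0 genes with those by RMS for LHY, 0 for TOC1 and 1 for GI. With genes down to a mean of 1 FPKM admitted they shared 1, 2 and 3.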
